A study of Mus musculus with 2 samples.

Results

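Apoe-high C1q macrophages are the cells of these data that combine complement C1q transcripts with very high levels of Apoe and little class II. They were chosen by 4 levels in CPM (the UMIs of a gene scaled to 1000000 UMIs per cell or group). C1qa, C1qb and C1qc together had to reach 5000 CPM and Apoe 40000 CPM, while S100a8 plus S100a9 stayed under 20000 CPM and H2-Aa, H2-Ab1 and H2-Eb1 together under 3000 CPM. There were 191 such cells, 133 in the heterozygous and 58 in the wild-type library, of 2985 kept cells (1234 and 1751). Single-cell RNA sequencing (10x Chromium 3′ v3.1) had profiled central nervous system cells labelled microglia-like, in 1 library labelled Cx3cr1-/+ and 1 labelled Cx3cr1+/+. The labels describe transplantation of sorted GFP+ and GFP- lineage-negative (Lin-) blood progenitors from Cx3cr1-/+ mice into CD45.1 recipients given busulfan, 4 doses of 25 mg/kg. Both libraries carry this same text, so the donors of the library labelled Cx3cr1+/+ were not stated, nor were age, sex, time after transplantation, number of animals, or how far recipient cells were removed. With 1 library per genotype, every ratio below compares these libraries, has no replicate check and carries no p-value. All intervals are exact, at 95%, and cover counting error only.

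Microglia settle in the brain before birth, while macrophages that descend from transplanted marrow cells can enter it after conditioning and take up a microglia-like life. Apoe encodes a lipid carrier that macrophages make when they clear membranes and myelin. Spp1 (osteopontin, a secreted adhesion protein), Gpnmb (a glycoprotein of phagocytic vesicles), Fabp5 (a fatty acid carrier) and Lgals3 (a galectin) are known from phagocytes around damage. Ms4a7 is known as a marker of brain macrophages that do not come from the embryonic microglial lineage. P2ry12, Tmem119, Siglech and the transcription factor Sall1 mark resident, homeostatic microglia.

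The libraries held 17828344 UMIs in 1837 barcodes (heterozygous) and 22062823 in 2359 (wild type). A total of 339 barcodes were listed in both and were left out, among them 2 heterozygous and 1 wild-type barcode that met the rule. The median Apoe-high cell held 6582 UMIs and 2211 genes (heterozygous) or 5529.5 UMIs and 1849.5 genes (wild type); over all kept cells the medians were 8445.5 and 7250 UMIs. No doublet caller was run for these cells. Every heterozygous Apoe-high cell with a sex-linked mark was Xist-marked: 114 had Xist UMIs, 0 had UMIs of Ddx3y, Uty, Kdm5d or Eif2s3y, and 19 had neither. Wild-type Apoe-high cells were mixed, with 8 Xist-marked, 16 Y-marked, 4 with both and 30 with neither. The genotype label and the mix of marks therefore differ together and cannot be told apart in the comparison of the libraries.

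Cx3cr1 (chr9:119901616-120069879, GRCm38), the fractalkine receptor whose genotype names the libraries, was lower in Apoe-high cells of the heterozygous library. It stood level in lower-Apoe C1q cells, which meet the rule except for Apoe. In Apoe-high cells Cx3cr1 reached 812 CPM (973 UMIs, 119 of 133 cells) against 1400 CPM (580 UMIs, 50 of 58 cells). The log2 ratio was -0.79 (-0.94 to -0.64). One wild-type cell held 118 of the 580 UMIs, and without the top cell of each library the log2 ratio was -0.62. In lower-Apoe C1q cells Cx3cr1 stood at 1566 and 1594 CPM. Where the altered allele differs was not given in the labels, so these 3′ counts check no genotype.

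Apoe-high cells were a larger part of the heterozygous library. They made up 10.8% (9.10 to 12.6) of its kept cells and 3.31% (2.52 to 4.26) of those of the wild-type library. Among C1q cells, the same counts were 28.5% (24.4 to 32.8) of 467 and 11.3% (8.68 to 14.3) of 514. The other C1q groups took closer shares of the kept cells. Lower-Apoe C1q cells, which meet the rule except for Apoe, were 21.4% (19.1 to 23.8) and 19.2% (17.4 to 21.1), and C1q cells at or above 3000 CPM of class II were 5.67% (4.45 to 7.11) and 6.85% (5.71 to 8.14). These shares can be set by the sort.

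The Apoe threshold cuts through a continuous range. Apoe-high cells ran from 40210 to 276230 CPM of Apoe with a median of 71739 in the heterozygous library, and from 40080 to 201720 with a median of 65370 in the wild-type library. The highest cells just outside lay at 39585 and 39065 CPM. Between 30000 and 40000 CPM there were 33 and 19 C1q cells, and between 40000 and 50000 CPM there were 20 and 17. The summed Apoe level of the chosen cells, 83283 and 66696 CPM, follows from the rule and is a description.

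The markers named with these cells, Ms4a7 (chr19:11321039-11336146), Spp1 (chr5:104435118-104441050) and Gpnmb (chr6:49036546-49070929, GRCm38), were present, but only Ms4a7 was found in most of them. Ms4a7 reached 1422 and 1096 CPM and was found in 128 of 133 heterozygous and 52 of 58 wild-type cells. Spp1 came from fewer cells, 64 heterozygous ones that gave 7356 CPM and 25 wild-type ones that gave 4313 CPM. Its median per cell was 0 in both, the upper quartile 2877 and 486 CPM, and the highest cell 97221 and 65370 CPM. Gpnmb reached 962 and 159 CPM, from 51 and 11 cells, with highest cells at 8273 and 5078 CPM. The rule takes in cells with and without these phagocyte transcripts.

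After each cell was thinned to 2000 UMIs, which left out 5 heterozygous and 10 wild-type Apoe-high cells, Ms4a7 was found in 87.5% and 70.8% of them. The shares in lower-Apoe C1q cells were 34.4% and 25.9%, and in Nkg7 cells, a killer-cell group that should lack the gene, 0 of 25 and 0 of 51; the exact upper bound for the larger, wild-type group was 6.98%, and 3 counts of its 51 cells would be 5.88%. Spp1 was found in 54 of 128 heterozygous Apoe-high cells (42.2%, 33.5 to 51.2). In the wild type 15 of 48 held it (31.2%, 18.7 to 46.3). In Nkg7 cells its shares were 4.00% and 9.80%, and the wild-type lower-Apoe cells, at 6.08%, did not exceed that. Gpnmb was found in 30.5% (22.6 to 39.2) and 14.6% (6.07 to 27.8), and in 0 of the Nkg7 cells of either library. Unthinned, Spp1 was found in 48.1% and 43.1% and Gpnmb in 38.3% and 19.0% of Apoe-high cells. Median depth before thinning was 7622 and 4941 UMIs in the Nkg7 cells.

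**Figure D1:**
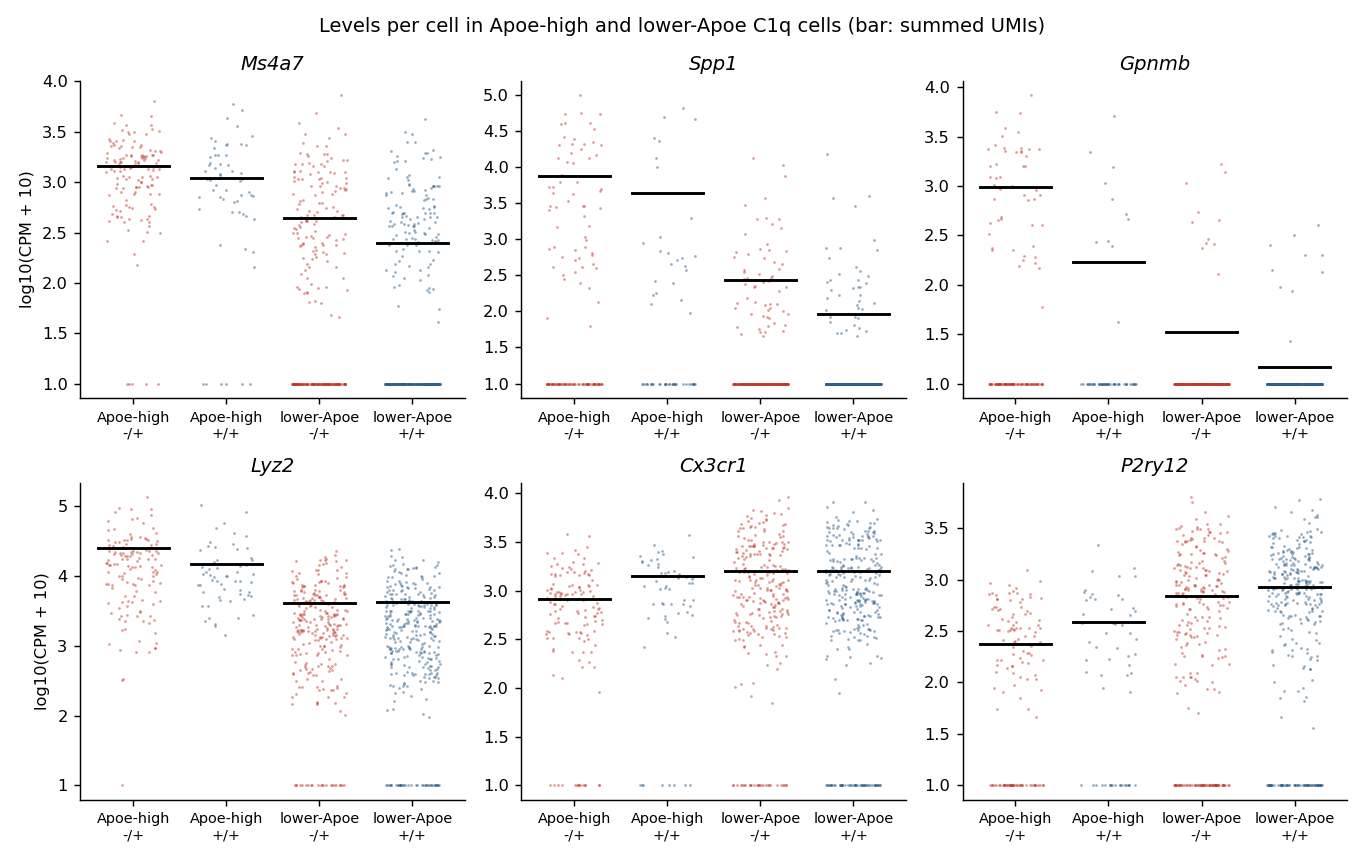
Levels per cell, as log10(CPM + 10), of 6 genes in Apoe-high and lower-Apoe C1q cells of the Cx3cr1-/+ (red) and Cx3cr1+/+ (blue) libraries. Each point is a cell, bars give the level from summed UMIs, and points at 1 are cells without a UMI. Spp1 and Gpnmb are at 0 in 69 and 82 of 133 heterozygous and 33 and 47 of 58 wild-type Apoe-high cells.

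Set against lower-Apoe C1q cells of the same library, Apoe-high cells had more Spp1, Gpnmb, Ms4a7 and Lyz2 in both libraries, and less of homeostatic, patrolling monocyte and cell cycle genes. Of 5864 genes with enough UMIs, the rule genes left out, 23 (0.392%) were at least 2-fold higher in both libraries and 213 (3.63%) at least 2-fold lower in both. Only 4 passed 2-fold in opposite directions. Apoe-high cells held 1198544 and 414340 UMIs in all, and lower-Apoe cells 2288393 and 2720520. The minimum of 50 UMIs over both groups of a library therefore admits genes high in lower-Apoe cells more readily. The numbers of higher and lower genes cannot be weighed against each other. Over all these genes the median log2 ratio was -0.25 and -0.18. With TMM scaling the medians were -0.02 and -0.08 and the counts 42 higher and 162 lower.

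Spp1 was 27.9-fold higher in heterozygous and 53.3-fold higher in wild-type Apoe-high cells, from 264 and 80.9 CPM in lower-Apoe cells. For Gpnmb the ratios were 40.8 and 33.3, from 23.6 and 4.78 CPM. The wild-type Spp1 sum rested in good part on 1 cell, with 870 of 1787 UMIs. After thinning, the share of wild-type lower-Apoe cells with Spp1 did not exceed that of Nkg7 cells. The size of the wild-type Spp1 ratio is therefore uncertain. Ms4a7 was 3.29-fold and 4.60-fold higher, and Lyz2 (lysozyme, an antibacterial enzyme of myeloid cells) 6.21-fold and 3.62-fold, at 25668 and 15137 CPM. Igf1, a growth factor gene, was 5.53-fold and 2.92-fold higher. Each of these ratios was past 2-fold in both libraries.

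The other genes at the top of this comparison were less abundant. Bst2 (tetherin, an interferon-induced membrane protein) reached 1744 and 1383 CPM, with log2 ratios of 1.25 and 1.42. Galc, which breaks down the myelin lipid galactosylceramide, reached 105 and 101.4 CPM, with log2 ratios of 1.24 and 1.63. Ctse (cathepsin E), Aoah (an enzyme that inactivates bacterial lipopolysaccharide), Cpq (a peptidase), Mdfic and Sash1 had log2 ratios between 1.21 and 1.72. All 12 genes taken by the rule for high ratios have thus been given: Ms4a7, Spp1, Gpnmb, Lyz2, Mdfic, Igf1, Ctse, Aoah, Bst2, Galc, Sash1 and Cpq.

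Promoters of 3 of the genes are shown because their levels in Apoe-high cells carry the description: Spp1, Gpnmb and the lysosomal protease gene Ctsd. They were chosen after these levels and their motif matches were known. Each runs from 250 bases before the start to 50 after it, in transcript direction, from RefSeq (GRCm38.p6). Spp1 lies at chr5:104434861-104435160 (plus strand), Gpnmb at chr6:49036268-49036567 (plus strand) and Ctsd at chr7:142387778-142388077 (minus strand). Capitals mark GAGGAAGT, a site of the macrophage factor PU.1, or CACGTG, the core letters bound by TFEB and TFE3, regulators of lysosomal genes.
Spp1: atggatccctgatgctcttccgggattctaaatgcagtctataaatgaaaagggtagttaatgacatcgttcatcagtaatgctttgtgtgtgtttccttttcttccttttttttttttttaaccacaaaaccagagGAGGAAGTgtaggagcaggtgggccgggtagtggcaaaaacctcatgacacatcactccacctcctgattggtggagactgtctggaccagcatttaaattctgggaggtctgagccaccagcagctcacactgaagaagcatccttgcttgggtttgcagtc
Gpnmb: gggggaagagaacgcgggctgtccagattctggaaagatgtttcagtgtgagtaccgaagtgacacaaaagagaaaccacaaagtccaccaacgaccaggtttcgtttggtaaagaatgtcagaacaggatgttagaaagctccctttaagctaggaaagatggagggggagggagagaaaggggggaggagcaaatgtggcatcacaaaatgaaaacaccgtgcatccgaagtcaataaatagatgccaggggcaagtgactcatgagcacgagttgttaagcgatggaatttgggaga
Ctsd: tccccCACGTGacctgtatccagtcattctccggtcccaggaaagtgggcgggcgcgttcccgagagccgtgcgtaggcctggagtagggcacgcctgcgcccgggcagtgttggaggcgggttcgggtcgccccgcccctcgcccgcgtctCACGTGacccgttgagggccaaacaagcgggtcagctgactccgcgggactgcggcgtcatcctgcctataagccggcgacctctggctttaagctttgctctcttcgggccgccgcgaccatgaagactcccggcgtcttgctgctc
Ctsd holds CACGTG 2 times, Spp1 holds GAGGAAGT once, and the Gpnmb window holds neither. On either strand of 300 bases, CACGTG was found for 7 of 22 lysosomal genes with a promoter in the table and for 8.09% of all 27025 genes, and for 3 of 20 damage-response genes. GAGGAAGT was found for 2 of 20 damage-response genes, 2 of 22 lysosomal genes and 3.69% of all genes. A match describes letters and not a bound site.

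Few other phagocyte and lysosomal genes passed 2-fold in both libraries. Ctsd reached 9611 and 6166 CPM, with log2 ratios over lower-Apoe cells of 1.13 and 0.51, and Cd63 (a lysosomal tetraspanin) 1594 and 946 CPM, with 1.30 and 0.84. Of 26 lysosomal genes tested, 0 passed 2-fold in both libraries, with medians of 0.19 and 0.17. In the damage-response list 3 of 22 passed upward (Spp1, Gpnmb and Igf1) and 1 downward (the chemokine gene Ccl6), beside 0.392% and 3.63% of all genes. Of 14 cathepsins and inhibitors 1 passed upward (Ctse). Trem2, the lipid-sensing receptor of microglia, had log2 ratios of 0.92 and 0.47. Liver X receptor and sterol efflux genes had medians of 0.52 and 0.20, with 0 of 14 past 2-fold in both. Among them Abca1, which loads cholesterol onto Apoe particles, had log2 ratios of 0.79 and 1.02.

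Homeostatic genes were lower. Of 20 tested, 0 were 2-fold higher and 8 were 2-fold lower in both libraries (beside 3.63% of all genes). P2ry12 stood at 224 and 374 CPM in Apoe-high cells, against 678 and 835 in lower-Apoe cells, a difference of -1.60 and -1.16 on the log2 scale. Sall1 stood at 2.50 CPM (3 UMIs) and 21.7 CPM (9 UMIs), against 62.5 and 77.9. Sparc (a matrix protein) differed by -2.33 and -1.85, Siglech by -2.14 and -1.59 and Crybb1 by -3.33 and -2.49. Not every gene of the list was lower: Fcrls stood at 2221 and 2107 CPM against 1484 and 1399.

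All 8 patrolling monocyte genes (Spn, Eno3, Cd300e, Treml4, Itgal and Nr4a1 among them) were at least 2-fold lower in both libraries (beside 3.63% of all genes). Apoe-high cells held few of their UMIs, for Spn 8 and 4 against 114 and 211. Of 6 classical monocyte genes tested 3 were lower (Ccr2, Fn1 and Plac8). Of 17 cell cycle genes 8 were lower in both. Top2a stood at 11.7 and 21.7 CPM against 112 and 93.0, and Ccna2 had 0 UMIs in Apoe-high cells of either library against 56 and 54. Cdca8, Hist1h1b, Ube2c and Pclaf, genes of dividing cells, had between 1 and 9 UMIs in Apoe-high cells of a library. Pilrb1, Gem, Slc1a3, Id3 and Traf1 completed the lowest 12, each with 10 UMIs or fewer. Genes with so few UMIs in Apoe-high cells passed the UMI minimum through the lower-Apoe cells, where they were high. Their lower levels, and the counts of these lists, are therefore a description. A Mki67 UMI was found in 6 heterozygous and 4 wild-type Apoe-high cells.

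Of 17 chemokine and cytokine genes 6 were 2-fold lower in both libraries and 0 higher (beside 3.63% of all genes lower). The list's median was -1.61 in the heterozygous library and -0.20 in the wild-type library, where the median of all genes was -0.18. Ccl4 stood at 639 and 625 CPM against 2524 and 2360. Insig1, a regulator of sterol synthesis, and the scavenger receptor Cd36 were also lower. In the interferon list Ifitm3 and Cxcl10 were lower and Bst2 higher. Cd74, the class II chaperone that the rule did not use, stood at 123 and 217 CPM against 831 and 629. The same class II limit held for both groups of cells, and the cause of this difference was not tested.

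Apoe-high cells were also set beside 2 lower-Apoe subgroups and the class II cells. The subgroups were split at 1000 CPM of P2ry12, Siglech, Gpr34, Olfml3 and Tmem119 summed. Ms4a7 stood at 341 and 172 CPM in the homeostatic-high and 657 and 489 CPM in the homeostatic-low group, below the Apoe-high cells in both. P2ry12 in Apoe-high cells lay between the homeostatic-high (925 and 1026 CPM) and homeostatic-low cells (68.3 and 105). Trem2 was higher in Apoe-high cells (2227 and 1583 CPM) than in homeostatic-high (1405 and 1302), homeostatic-low (610 and 544) and class II cells (445 and 468). Ctsd stood at 5085 and 4859 CPM in the homeostatic-high and 2662 and 2339 CPM in the homeostatic-low group, below the Apoe-high cells in both. In class II cells Spp1 stood at 46.5 and 51.5 CPM and Gpnmb at 9.10 and 1.98 CPM.

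**Figure D2:**
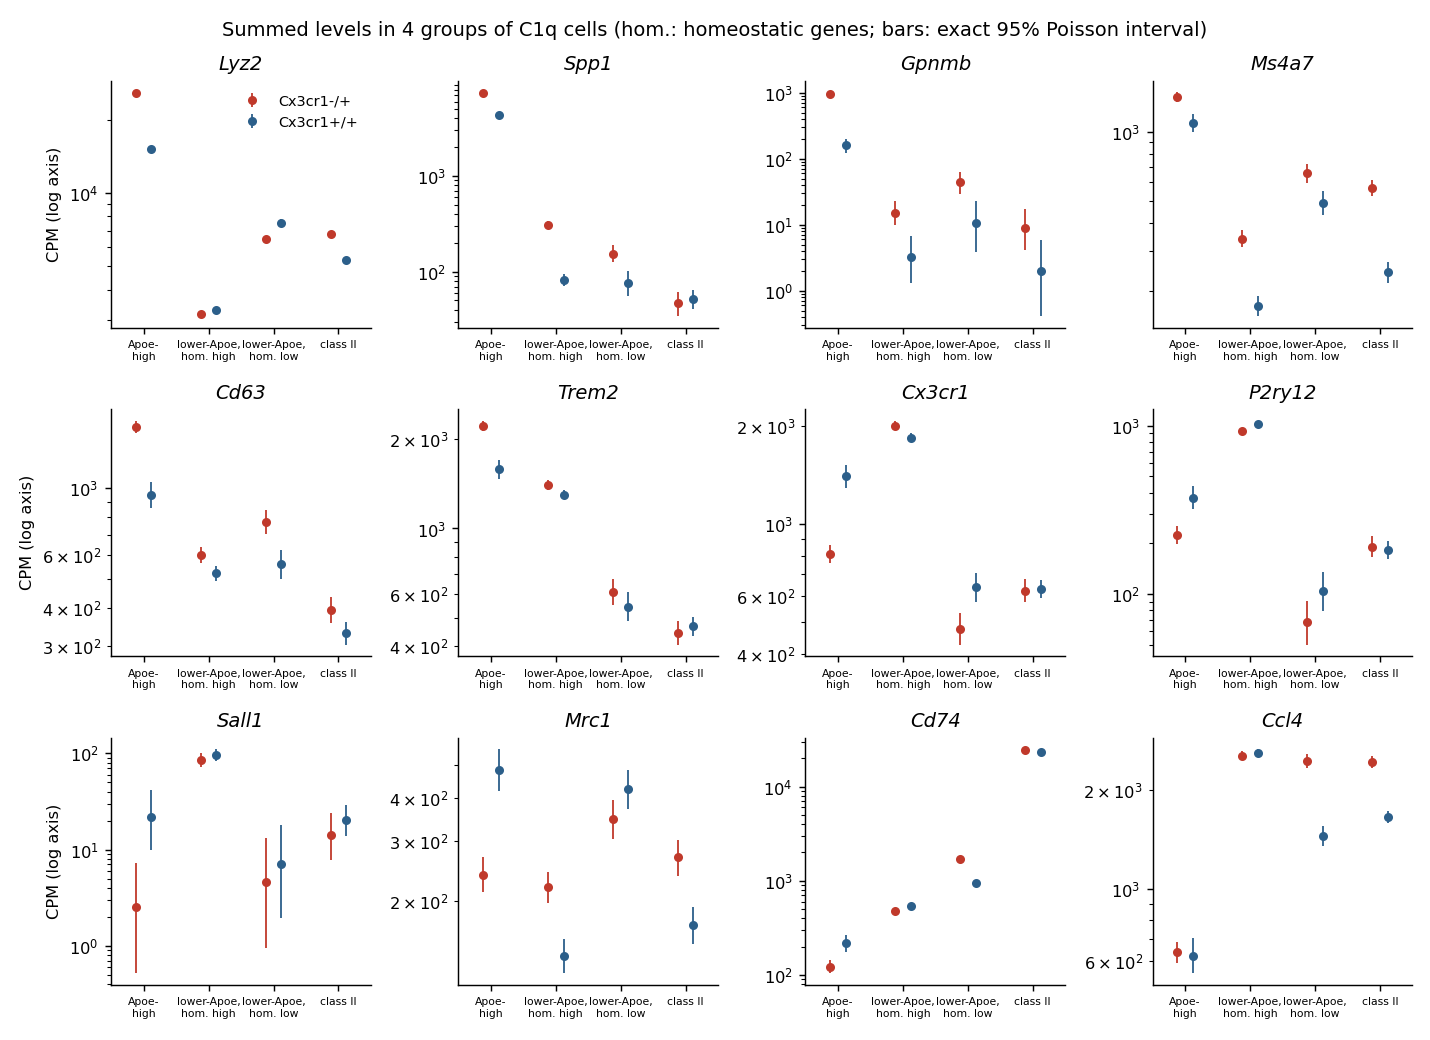
Summed CPM (log axis) of 12 genes in Apoe-high cells, lower-Apoe cells with high or low homeostatic genes, and class II C1q cells of both libraries, with exact 95% Poisson intervals. Spp1, Gpnmb, Lyz2, Ms4a7, Cd63 and Trem2 are highest in the Apoe-high cells of each library, and Ccl4 is lowest there.

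Within the Apoe-high cells, phagocyte transcripts were unevenly spread. When the cells of a library were ordered by Apoe in 3 groups, Spp1 stood at 1671, 4311 and 13475 CPM in heterozygous cells from the low to the high group. In wild-type cells it stood at 409, 58.7 and 15625 CPM. Gpnmb stood at 386, 678 and 1562 CPM in heterozygous and 41.5, 0 and 539 CPM in wild-type cells. Lyz2 went from 11944 to 37905 and from 9059 to 31971 CPM between the low and high groups. P2ry12 went from 299.8 to 158 and from 468 to 192 CPM. Median depth was 5769, 6786 and 9670 UMIs in the heterozygous groups and 5752.5, 6729 and 4752 in the wild-type groups. Apoe chose the cells, so these values are a description.

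The transcripts met in the same cells. After thinning, Gpnmb was found in 53.7% of heterozygous cells with a Spp1 UMI and 13.5% of those without, and in 7 of 15 and 0 of 33 wild-type cells. Fabp5 was found in 74.4% of heterozygous cells with and 18.0% of those without Gpnmb. P2ry12 was found in 7.69% of heterozygous cells with Gpnmb and 47.2% without, and the mannose receptor gene Mrc1 in 7.69% and 43.8%. The homeostatic marker Tmem119 did not divide this way, at 43.6% with and 46.1% without Gpnmb, nor did Ms4a7, at 94.9% and 84.3%. The wild-type library had 7 thinned cells with Gpnmb, of which 2 held P2ry12, 1 held Mrc1, 4 held Tmem119 and 5 held Ms4a7. Mrc1, a gene of the border-associated list, met P2ry12 in the same cells. P2ry12 was found in 64.3% of heterozygous cells with Mrc1 and 20.9% without, and in 73.3% and 36.4% of wild-type cells.

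Between the libraries, Apoe-high cells of the heterozygous library had more Gpnmb, Fabp5, Lgals3 and sterol transport transcripts, and fewer homeostatic, chemokine and border-macrophage transcripts. Part of the wild-type homeostatic UMIs came from 4 cells with both Xist and Y marks. Of 3860 genes with at least 50 UMIs and a mean of 20 CPM, 279 (7.23%) were at least 1.5-fold higher and 286 (7.41%) at least 1.5-fold lower. The median log2 ratio was -0.03. The balance of directions depended on scaling, with 381 higher and 186 lower under TMM, 363 and 203 under median-of-ratios scaling and 532 and 322 with equal weight per cell. Without the top cell of each gene in each library it was 409 and 206, a check added after seeing the data. That check takes 1 of 133 heterozygous and 1 of 58 wild-type cells per gene, so it is not even between the libraries.

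Gpnmb was 6.04-fold higher in the heterozygous library, with 1153 UMIs against 66 and a log2 ratio of 2.59 (2.24 to 2.97). Fabp5 had 695 UMIs against 34, 580 against 82.1 CPM, a log2 ratio of 2.82 (2.32 to 3.36). Lgals3 had 475 against 40 UMIs, a log2 ratio of 2.04 (1.57 to 2.54). Equal weight per cell brought these to 1.46, 1.83 and 1.25. The other genes taken by the rule for high ratios had 96 heterozygous UMIs or fewer: Apoc4 (an apolipoprotein of the Apoe gene cluster), Clec4d (a C-type lectin), Myof (a membrane repair protein), Gla (a lysosomal galactosidase), Bcl2a1a (a survival factor with near-identical copies), Atad2, Fam20c, Thbs1 (a matrix protein) and Vat1. Their log2 ratios ran from 1.70 to 2.75, on 3 to 8 wild-type UMIs each. Vat1 went to 0.11 with equal weight per cell.

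The damage-response list had 10 of 21 tested genes 1.5-fold higher (beside 7.23% of all genes) and 1 lower (Ccl6), with a median log2 ratio of 0.55. It was chosen with earlier results of these data known, so its direction is no independent evidence. Spp1 had a log2 ratio of 0.77 (0.70 to 0.84). Without the top cell of each library, 1 of 133 and 1 of 58 cells, it was 1.505. Liver X receptor and sterol efflux genes had 7 of 15 higher and 0 lower, with a median of 0.58. Among them were Apoc4, Apoc2 (232 against 116 CPM, log2 ratio 1.00), Npc1 (a lysosomal cholesterol exporter, 0.68) and Abcg1 (a cholesterol efflux pump, 0.67). Of 26 lysosomal genes 6 were higher and 0 lower, with a median of 0.14. Pld3 had a log2 ratio of 1.57, Cd63 0.75 and Psap (a saposin precursor) 0.65. Ctsd (0.64) and the cathepsin inhibitor Cstb (0.81) were the 2 of 14 cathepsin-list genes that were higher. Aldoa, Pkm, Pfkl and Tpi1 were the 4 of 11 glycolysis genes that were higher.

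Lower in the heterozygous library were 7 of 17 homeostatic genes, with 0 higher and a median of -0.49 (beside 7.41% of all genes). P2ry12 had a log2 ratio of -0.74 (-1.03 to -0.45), Selplg -0.81, Siglech -0.88 and Cx3cr1 -0.79. Part of the wild-type UMIs came from the 4 cells with both Xist and Y marks, of median depth 14577 UMIs. These held 58 P2ry12 UMIs, against 11 in Xist-marked, 41 in Y-marked and 45 in unmarked wild-type cells. Selplg had 58 against 9, 51 and 31, and Siglech 24 against 2, 5 and 16. Sparc had 66 against 1, 20 and 86, and Cx3cr1 169 against 68, 213 and 130. P2ry12 stood at 801 CPM in these 4 cells, and at 200, 250 and 366 CPM in Xist-marked, Y-marked and unmarked wild-type cells. Xist-marked and unmarked heterozygous cells held P2ry12 at 225 and 205 CPM. For Siglech the wild-type levels were 331 CPM in the 4 cells and 36.3, 30.5 and 130 in the others, beside 57.4 and 121 in heterozygous cells. Ratios with only these 4 cells left out were not computed. The sign for P2ry12, Selplg, Siglech and Sparc was positive when only Xist-marked cells of both libraries were compared, and that for Siglech also at an Apoe threshold of 50000 CPM (0.37). Tmem119, at 331 and 386 CPM, had -0.22 (-0.49 to 0.05). Border-associated macrophage genes had 5 of 7 lower, with a median of -1.02. Mrc1 stood at 239 and 483 CPM (log2 ratio -1.02), Pf4 (a platelet and macrophage chemokine) at 360 and 714 (-0.99) and F13a1 at 76.8 and 186 (-1.28). Cbr2 had 13 and 42 UMIs. Cd209f had 0 heterozygous UMIs and 69 wild-type UMIs, of which 63 lay in 1 of 2 cells. Lyve1 UMIs were found in 0 heterozygous and 4 wild-type cells.

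Chemokine and cytokine genes had 9 of 13 lower and 0 higher, with a median of -0.99 (beside 7.41% of all genes lower). Ccl2 had 119 against 354 UMIs (log2 ratio -3.11), with 129 of the wild-type UMIs in 1 cell, and stood at -2.80 without the top cells. That cell was 1 of 2 Xist-marked wild-type cells with 221 of the UMIs, and the value without the top cells still holds the other. Ccl7 had 23 against 109 UMIs, 83 of them in 1 cell. Il1a and Il1b, genes of interleukin 1, had log2 ratios of -2.64 and -1.89, while Ccl4 had 0.03 (-0.17 to 0.24). Immediate early and heat shock genes, which cell isolation can induce, had 7 of 17 lower and 0 higher, with a median of -0.56. Egr1 stood at 336 and 953 CPM, Dusp1 at 1045 and 1784, Nr4a1 at 116 and 205, and Hspa1a had 36 and 22 UMIs. The part of isolation in the chemokine values was not tested.

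**Figure D3:**
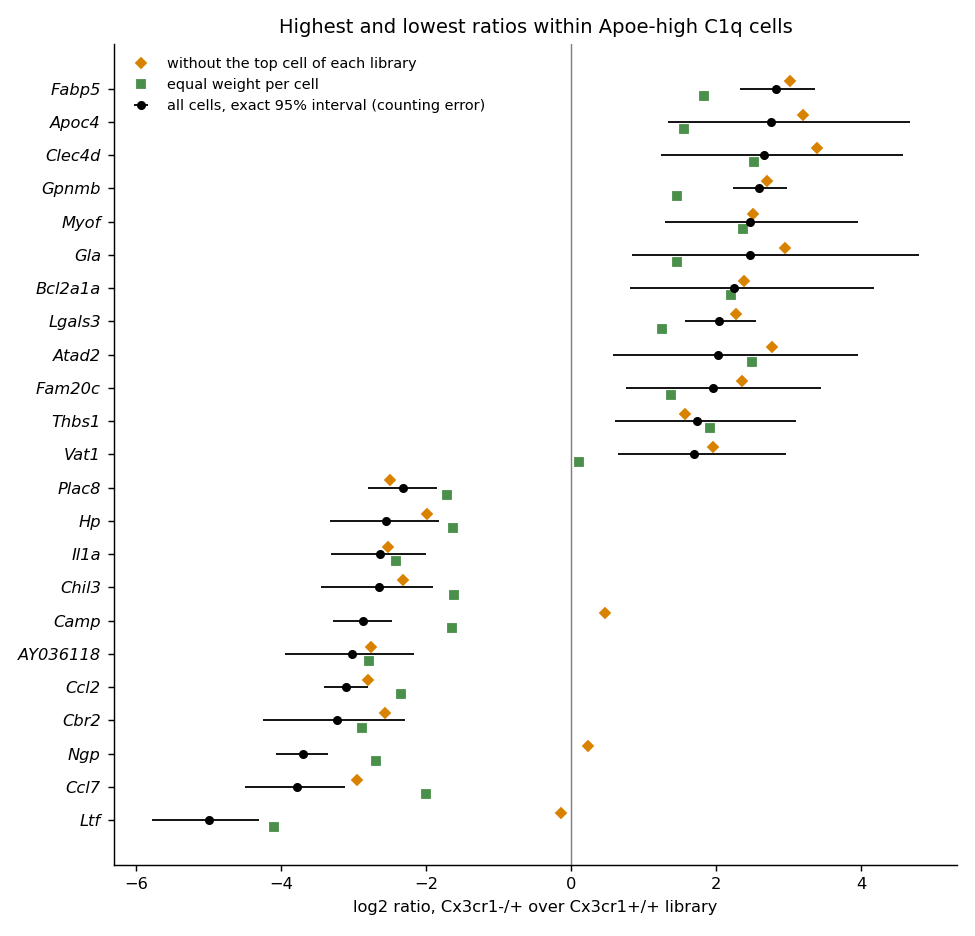
Log2 ratio of the heterozygous over the wild-type library within Apoe-high cells for the genes taken by the rule at either end, with exact 95% intervals; Cd209f, at 0 in the heterozygous library, is left out. Diamonds leave out the cell of each library with most UMIs of the gene and squares weight cells equally; Ngp, Camp and Ltf lie near 0 as diamonds, and Vat1 does as a square.

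Neutrophil granule genes were lower in the heterozygous library, and in the wild-type library 1 cell held most UMIs of each. These top cells held 339 of 360 Ngp, 193 of 199 Ltf, 166 of 183 Camp and 69 of 80 Lcn2 UMIs. With the top cells left out, the log2 ratio of Ngp went from -3.70 to 0.23, that of Camp from -2.88 to 0.47, that of Lcn2 from -2.24 to 0.50 and that of Ltf from -5.00 to -0.15. The list had 5 of 6 tested genes lower (beside 7.41% of all genes). The monocyte genes Chil3, Hp and Plac8 had log2 ratios of -2.66, -2.56 and -2.32. Their highest wild-type cells held 26 of 48, 22 of 49 and 43 of 102 UMIs. AY036118, a transcript without a described product, stood at 13.4 and 109 CPM.

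Ratios between the libraries were computed apart in cells with and without the phagocyte transcripts. A Spp1 or Gpnmb UMI was found in 73 of 133 heterozygous and 25 of 58 wild-type Apoe-high cells. This split was made after seeing the data, and depth goes with it: the medians were 8611 and 6316 UMIs in cells with, and 5664 and 4883 in cells without. The mix of cells with such a UMI also differed, since 51 heterozygous and 11 wild-type cells held Gpnmb. The others, 22 and 14 cells, entered on Spp1 alone, with 667 and 148 Spp1 UMIs. The part of this mix in the ratios was not tested. In cells with such a UMI, Fabp5 had a log2 ratio of 2.44 (1.92 to 3.01), Lgals3 2.33, Cd63 1.08 and Igf1 1.55. P2ry12 had -1.54 (-1.93 to -1.15), Sparc -1.74 and Cx3cr1 -1.16. In cells without one, Cd63 had -0.01 (-0.25 to 0.24), Ctsd 0.18 and Lyz2 -0.17. P2ry12 had 0.30 (-0.15 to 0.78) there, Sparc 1.19, Cx3cr1 -0.30 (-0.52 to -0.07) and Csf1r -0.01 (-0.19 to 0.18).

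Over the 14 homeostatic genes with enough UMIs in both groups of cells, 8 were lower and 0 higher in cells with a Spp1 or Gpnmb UMI, with a median of -0.67. In cells without one, 0 were lower and 2 higher, with a median of 0.14. The medians of 13 damage-response genes, Spp1 and Gpnmb left out, were 0.39 and -0.01. Spp1 and Gpnmb, which made the split, belong to this list, and Fabp5 and Lgals3 met Gpnmb in the same cells. The split therefore also sorts cells by other genes of the list, and these medians are a description. Chemokine genes were low in both, with medians of -0.35 and -0.59 over 11 genes, and Ccl2 had log2 ratios of -2.33 and -3.00. Of all 1627 genes compared, 127 were higher and 199 lower in cells with, and 116 and 103 in cells without. The difference between the groups of cells was not tested.

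**Figure D4:**
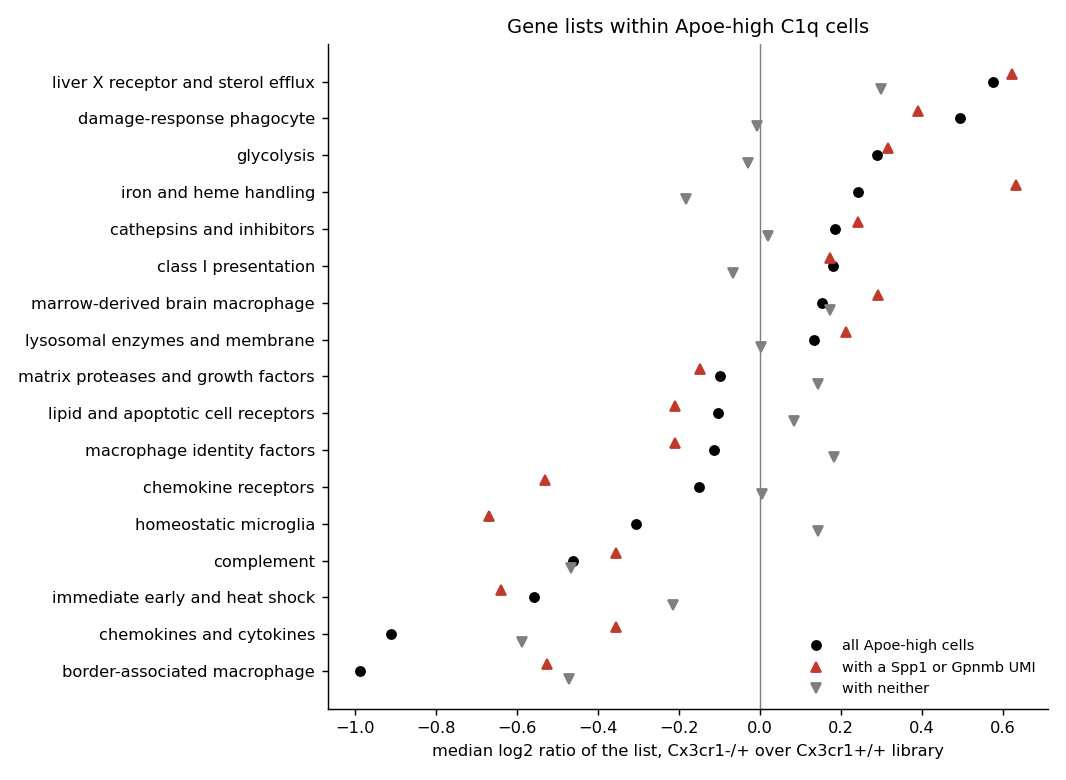
Median log2 ratio of the heterozygous over the wild-type library for 17 gene lists with at least 5 genes measured in both groups of cells, in all Apoe-high cells (circles), those with a Spp1 or Gpnmb UMI (upward triangles) and those with neither (downward triangles). Homeostatic genes lie at -0.67 with and 0.14 without such a UMI, and damage-response genes at 0.39 and -0.01. Spp1 and Gpnmb, which made the split, belong to the damage-response list.

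The part of the sex-linked marks was not tested, and they moved with several of these values. The 8 Xist-marked wild-type cells held Mrc1 at 1162 CPM and Ccl2 at 4014 CPM, and the 16 Y-marked ones at 446 and 336. All 221 Ccl2 UMIs of the Xist-marked cells lay in 2 of the 8, so that level is not one of the group. P2ry12 stood at 200 and 250 CPM in these, and at 801 CPM in the 4 cells with both marks. Against the 8 Xist-marked wild-type cells, the 114 Xist-marked heterozygous cells had a median of 0.32 for homeostatic genes. Against the 16 Y-marked cells it was -0.08. Gpnmb stood at 291 CPM in Xist-marked and 79.3 CPM in Y-marked wild-type cells, against 955 in Xist-marked heterozygous cells. Which of the marks belong to donor or recipient was not given in the sources used here.

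Markers of other cell types were low, except for neutrophil markers in the wild-type library and border-associated macrophage genes. The latter summed to 1695 and 3041 CPM in heterozygous and wild-type Apoe-high cells, against 2209 and 1849 in lower-Apoe C1q cells. Summed NK and T cell markers stood at 14.2 CPM in heterozygous and 19.3 in wild-type Apoe-high cells, astrocyte and neuron markers at 15.9 and 9.65, and oligodendrocyte markers at 59.2 and 89.3. B cell markers stood at 101.0 and 130 CPM, led by Ighm. Endothelial markers, nearly all from Bsg, stood at 456 and 396, choroid plexus and ependymal markers at 115 and 111, led by Ttr, and erythroid and platelet markers at 90.9 and 82.1, led by Hbb-bs. Dendritic cell markers, led by Irf8, stood at 351 and 362 CPM. At 0 in all Apoe-high cells were 5 of 9 NK and T cell, 2 of 6 B cell, 3 of 8 endothelial, 3 of 7 oligodendrocyte, 4 of 8 astrocyte and neuron and 5 of 10 dendritic cell markers. Classical monocyte markers stood at 104 and 589 CPM, patrolling monocyte markers at 198 and 352 and neutrophil markers outside the rule at 285 and 2141 (447 and 376 in lower-Apoe cells). Their part in the differences between the libraries was not tested beyond the values without the top cells.

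Among the other lists, some had no gene past 1.5-fold between the libraries and others had genes past it in both directions. Of all genes 7.23% were higher and 7.41% lower. Of the marrow-derived macrophage genes 1 of 13 was higher (Lyz2, log2 ratio 0.76) and 0 were lower, and of lipid and apoptotic cell receptors 0 of 9 passed in either direction. Macrophage identity factors had 1 of 14 lower, Klf4, whose log2 ratio of -0.63 was -0.05 without the top cells. In the iron list Fth1 (a ferritin) was higher, at 16363 and 10897 CPM, and Cp lower. Of 7 complement genes 1 was higher (Itgax) and 1 lower, with a median of -0.31. Cxcr4 was higher and Ccr1 and Cx3cr1 lower among 6 chemokine receptor genes. Isg15 was higher and Ifi27l2a and Ifitm3 lower among 6 interferon genes. In the matrix list Plau, Mmp14 and Igf1 were higher and Sparc and Pdgfb lower, of 9. Fc gamma receptors (4 tested), class I genes (9) and cell cycle genes (7) had 0 in either direction, and Cd74 was lower among 3 class II genes. Mitf was higher among 3 lysosome regulators, with 45 and 8 UMIs. No sterol synthesis gene had enough UMIs to be compared.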

How the data were processed

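The deposited files hold UMI counts per gene and cell barcode for 32285 listed genes in 1 heterozygous and 1 wild-type library. The submitters' processing notes name Cell Ranger 4.0, while the file headers give cellranger 5.0.0; the annotation was not given in the sources used here. A barcode was kept if it had 500 genes or more, a mitochondrial share under 10% and no entry in the other library. No doublet caller was run. UMIs were summed over the cells of a group and scaled to CPM.

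Ratios between libraries used genes with at least 50 UMIs over both and a mean of 20 CPM and were counted past 1.5-fold. Ratios over lower-Apoe C1q cells used genes with at least 50 UMIs in each library and were counted past 2-fold in both. Intervals are exact Poisson for levels, Clopper-Pearson for shares and conditional binomial for ratios, at 95%. UMI counts of a single library give counting error only. Cells were thinned to 2000 UMIs with a fixed seed. Named genes were the 12 highest and 12 lowest ratios of each comparison, without predicted, ribosomal, mitochondrial, sex-linked and rule genes, and up to 4 genes of each of 36 lists past the fold, or the 2 most abundant where none passed. Other genes named were chosen after their values were seen, as were the splits by Spp1 or Gpnmb, the values without top cells, the minimum of 5 genes for a list median and the 3 promoters. The cells and lists were chosen with earlier results of these data known. TMM factors came from edgeR 4.0.16 in R 4.3.3, and all else from Python 3.11.15 with numpy 2.4.6, scipy 1.17.1 and pandas 2.3.3. The ratio code was tested on simulated data. Values of a few single genes are not reported here.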

Additional observations from a re-analysis of the deposited data

How the results depend on the processing

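No paired analysis was possible because the groups share only 1 replicate number, and with 1 library per genotype no library could be left out. The cause of the changes below was not tested, except where a setting changes which genes or cells enter. Shares of Apoe-high cells moved to 13.5% and 4.40% at an Apoe threshold of 30000 CPM, to 2.34% (wild type) at 50000 CPM, and to 9.08% (heterozygous) with no cell filter and 9.07% with shared barcodes kept. At 30000 CPM, 129 genes were 2-fold lower than in lower-Apoe cells, the chemokine median was -0.51 and the Chil3 log2 ratio over heterozygous lower-Apoe cells was 0.13. At 50000 CPM the medians were 0.36 for damage-response, -0.35 for immediate early and -3.68 for neutrophil genes, and Siglech between libraries was 0.37. With 1000 genes and under 5% mitochondrial UMIs the neutrophil median was -3.19 and Ltf over heterozygous lower-Apoe cells was 0.12; with the S100 limit at 5000 CPM it was 0.0058. A class II limit of 1000 CPM left 15 genes 2-fold higher.

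Under TMM 186 genes were lower between libraries and 42 were 2-fold higher than in lower-Apoe cells, and under median-of-ratios scaling 40 were. Equal weight per cell gave 532 higher and 45 2-fold higher genes, medians of -0.63 for border-associated, -1.46 for neutrophil, 0.19 for damage-response, -0.65 for chemokine, 0.16 for identity factor and -0.14 for immediate early genes, and 0.33 for Klf4. A minimum of 10 UMIs gave 585 lower and 39 2-fold higher genes and a border-associated median of -1.61. A minimum of 200 gave 40 higher, 45 lower, 7 2-fold higher and 58 2-fold lower genes and a chemokine median of -0.67. Without a minimum there were 1571 higher, 2192 lower, 138 2-fold higher and 416 2-fold lower genes. Leaving out the deepest 5% of cells removed no Apoe-high cell, so it tests nothing between the libraries.

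Between Xist-marked cells of both libraries (8 in the wild type), 667 genes were higher and 637 lower, with medians of 0.32 for homeostatic, -2.22 for border-associated, -0.92 for immediate early, 0.83 for matrix and 0.50 for interferon genes. P2ry12 was 0.17, Selplg 0.32, Siglech 0.66, Sparc 3.61, Lcn2 0.15 and Ngp 1.91. When Xist-marked heterozygous cells were set against the Y-marked cells of the wild type, 451 genes were higher, the neutrophil median was -4.31, and Klf4 was 0.40, Siglech 0.91 and Sparc 0.86. Without the top cells the neutrophil median was 0.23, Camp 0.47, Lcn2 0.50 and Ngp 0.23 between libraries, and Camp -0.19 and Lcn2 -0.75 over wild-type lower-Apoe cells.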
